A study of Mus musculus with 8 samples.

Results

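Basal cells of expanded mouse back skin were set against the midpoint of untreated control skin and phorbol ester-treated skin. The question the contrast addresses is where expansion departs from both of the other states. All 8 arrays of the series entered it: 3 untreated control mice, 3 mice at day 4 of force-mediated skin expansion and 2 mice treated with 12-O-tetradecanoylphorbol-13-acetate (TPA), for which the labels give neither dose nor time. All were CD1 mice, an outbred stock, with a different mouse for each array per the series' design text, and no age or sex in the labels. From each mouse 300 cells of the interfollicular epidermis and the infundibulum, the upper opening of the hair follicle, were sorted as positive for the basal integrin ITGA6 and negative for the bulge marker CD34. For each of the 17097 genes with a probe set, the contrast was the mean of the expanded arrays minus the average of the control mean and the TPA mean, each weighted at 50%, in log2 units of robust multi-array average (RMA) signal. Its value is the same if the names control and TPA are exchanged. A gene passed where limma's Benjamini-Hochberg adjusted p over all genes was under 0.05.

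The basal layer holds the dividing keratinocytes of the epidermis, which attach to the basement membrane through integrins and give rise to the differentiating suprabasal layers. Stretch acts on such cells through the actin cytoskeleton, the cofactors YAP and TAZ, the coactivator MAL with its partner SRF, and the mitogen-activated protein kinase pathway with its AP-1 transcription factors. TPA activates protein kinase C and is a classical inducer of AP-1 activity, epidermal thickening and inflammation without stretch.

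The arrays were alike in scale. Over all genes the median signal of an array lay between 7.08 and 7.14, and the level below which a signal was treated as background, set for each array at the 95th percentile over 79 chemosensory receptor genes, lay between 6.37 and 6.55. The sorting marker Itga6 was between 11.52 and 12.31 on all arrays, with a contrast of -0.13 ± 0.06 (SE, adjusted p = 0.401). Krt5 and Krt14, the basal keratins, had contrasts of -0.02 each (adjusted p = 0.950 and 0.932), and Cd34 was below the background limit on every array. Among stress genes, Odc1, the polyamine synthesis enzyme, was 11.33, 11.36 and 11.33 in the arrays labelled control, 9.82, 9.70 and 9.99 in the expanded arrays and 8.93 and 9.05 in the arrays labelled TPA. It was thus lowest under the TPA label and highest under the control label, which bears on any comparison with 1 of these groups but leaves the midpoint where it is. The mean of the stress and wound list had the same order, at 10.49 to 10.87, 10.09 to 10.19 and 8.48 to 8.81. The mean of the immediate early list went the other way, at 10.54 to 10.60 under control and 11.22 to 11.27 under TPA. The cause was not tested, and the TPA level below means that of the arrays so labelled. Xist, the RNA of the inactive X chromosome, and the Y-linked Eif2s3y and Kdm5d were all above the background limit on every array. By their known expression, Xist marks female cells and the Y-linked genes male cells. Read at face value, the signals of Xist and Eif2s3y do not match cells of a single mouse per array. Kdm5d was at 6.57 on control replicate 1, close to the limit of 6.55 there. Uty, also Y-linked, was above the limit on the expanded arrays only. Whether the Y-linked probe sets read only their own genes was not tested, so cells of both sexes are not shown for every array. The values are given with the sex-linked genes.

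Of the 17097 genes, 294 passed, which is 1.72%: 134 were higher in expanded skin (0.784%) and 160 lower (0.936%). At an unadjusted p under 0.05 there were 2475 genes. The differences were small. The median size of the contrast was 0.55 among the genes that passed and 0.08 among all genes, and 29 genes reached a difference of 2-fold, 13 higher and 16 lower. For scale, 1960 genes (11.5%) passed against the control arrays and 1022 (5.98%) against the TPA arrays. These 2 comparisons use the same expanded arrays.

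A contrast with a midpoint is large both for a gene beyond the 2 other groups and for a gene that lies with one of them. By group means, 89 of the 294 genes (30.3%) lay above both other groups, 121 (41.2%) below both and 84 (28.6%) between them; over all genes these shares were 30.0%, 19.8% and 50.2%. In 149 genes the 3 expanded arrays did not overlap any of the 5 others, 68 above them and 81 below. Among all genes, 561 (3.28%) had all expanded arrays above all others and 396 (2.32%) below. The strictest call asked that a gene differ from control and from TPA in the same direction, by the larger of the p-values of those differences. On this joint test 1 gene passed as lower than both (0.00585%) and 0 as higher than both (0%), with 443 genes at an unadjusted p under 0.05.

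The count of 294 moved with single arrays. It was 162, 125 and 164 without control replicates 1, 2 and 3, and 135, 73 and 63 without expanded replicates 1, 2 and 3. By rule, 40 genes were named for lying clear of all other arrays, and not all are described below. Those not described were Mgst2, Slc27a3, Rassf10, L1cam, Prxl2b, Ly6c1, Agtrap, Rxrb, 2700038G22Rik and Exoc8 on the higher side. On the lower side they were Tsc22d2, Sulf1, Itpkb and Rgs2. All 40 were picked for large contrasts on these same arrays, which favours their being kept when 1 array is left out. Even so, not all of the 40 were kept: 18 passed with each of the 8 arrays left out in turn. They were Prss23, Mmp3, Ifi202b, Xist, Fosl1, Utp14b, F3, Itgb6, Creb3l2, Rnf19b and Ndrg1 on the lower side, and Serpina3n, Serpinb3a, 2610528A11Rik, P4ha3, Cdhr1, Slc35g1 and Eif2s3y on the higher side.

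**Figure D1:**
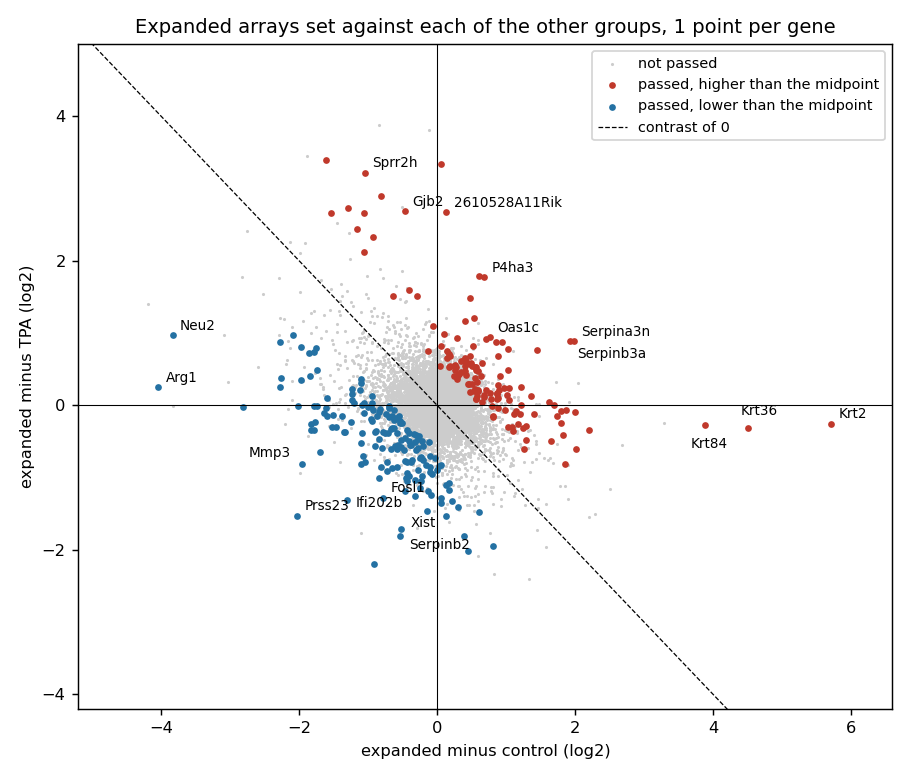
Each point is 1 of the 17097 genes, with the difference between expanded and control arrays on the horizontal axis and between expanded and TPA arrays on the vertical axis, both in log2 units; coloured points are the 294 genes that passed, and the dashed line marks a contrast of 0. Prss23 lies far to the lower left, lower than both groups, whereas Krt2, Krt36 and Arg1 lie along the horizontal axis, near the TPA level.

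Among the genes that passed with every expanded array below all others, the largest contrasts were those of Prss23, Mmp3, Ifi202b and Serpinb2. The 250 bases before the most upstream annotated start are shown for 4 of them because the lower genes include an AP-1 subunit, Fosl1, along with Mmp3, F3 and Serpinb2, which are often described as AP-1 targets. The sequences are RefSeq's on build GRCm38.p6, and capitals mark matches of the AP-1 letters TGANTCA on either strand. Prss23 is shown as the gene that passed the joint test; its window, chr7:89527188-89527437 on the minus strand, held none of the 12 motifs searched. Mmp3 lies at chr9:7445572-7445821 on the plus strand, F3 at chr3:121723287-121723536 on the plus strand and Serpinb2 at chr1:107511173-107511422 on the plus strand.
Prss23: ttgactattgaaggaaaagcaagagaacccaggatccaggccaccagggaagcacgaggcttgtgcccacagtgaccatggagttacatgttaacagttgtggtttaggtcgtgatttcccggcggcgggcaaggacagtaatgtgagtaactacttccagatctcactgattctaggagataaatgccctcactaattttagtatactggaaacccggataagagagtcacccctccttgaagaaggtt
Mmp3: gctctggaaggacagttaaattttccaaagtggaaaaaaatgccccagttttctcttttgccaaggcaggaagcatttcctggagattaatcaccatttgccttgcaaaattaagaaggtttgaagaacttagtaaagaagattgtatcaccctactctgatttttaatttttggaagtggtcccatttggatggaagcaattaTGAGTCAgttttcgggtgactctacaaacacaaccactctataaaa
F3: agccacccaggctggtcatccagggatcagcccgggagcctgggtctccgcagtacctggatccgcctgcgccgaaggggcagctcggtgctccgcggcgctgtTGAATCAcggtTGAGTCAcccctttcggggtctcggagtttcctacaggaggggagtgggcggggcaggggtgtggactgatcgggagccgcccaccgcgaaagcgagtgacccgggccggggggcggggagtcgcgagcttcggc
Serpinb2: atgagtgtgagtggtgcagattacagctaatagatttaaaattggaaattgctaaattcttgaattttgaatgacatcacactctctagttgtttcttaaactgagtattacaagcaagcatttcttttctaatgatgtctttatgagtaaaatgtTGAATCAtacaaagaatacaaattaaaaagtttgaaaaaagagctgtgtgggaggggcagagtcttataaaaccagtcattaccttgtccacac
The match in Mmp3 begins 46 bases before the start, those in F3 begin 146 and 135 bases before it, and that in Serpinb2 begins 94 bases before it. The windows of Ifi202b and Itgb6, also lower without array overlap, were searched too and held no AP-1 match. The printed windows are thus examples and do not stand for the lower genes as a set. AP-1 matches were found in 5 of the 69 lower genes without array overlap that had a window (7.25%), in 3 of 59 such higher genes (5.08%) and in 765 of all 13605 windows (5.62%). CACGTG, the E-box, was found in 13.0% of the lower, 6.78% of the higher and 7.59% of all windows, and GGAATG, the letters bound by TEAD factors, in 10.1%, 5.08% and 11.4%. CCAAT was found in 46.4%, 27.1% and 36.0%. Windows with and without a match were found on both sides, and the shares describe letters in a fixed window only.

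Prss23, a secreted serine protease, was the gene that passed the joint test. Its signal was 10.06, 9.70 and 9.77 in the control arrays, 7.67, 8.03 and 7.74 in the expanded arrays and 9.35 and 9.33 in the TPA arrays. Every expanded array was more than 1 log2 unit under every other array. The contrast was -1.78 ± 0.11 (SE, adjusted p = 0.00115), with differences of -2.03 from control and -1.53 from TPA and an adjusted p of 0.0363 on the joint test. When each array was left out in turn, the joint call was kept without control replicate 1 and without expanded replicate 2 and was lost without each of the others, with an adjusted p of up to 0.300.

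Mmp3, the matrix protease stromelysin-1, was 10.85, 10.70 and 10.63 in control, 9.10, 8.71 and 8.51 in expanded and 9.64 and 9.55 in TPA arrays. The groups did not overlap, and the TPA arrays lay between the other 2 groups. The contrast was -1.39 ± 0.13 (adjusted p = 0.00329). Ifi202b, an interferon-inducible DNA-binding protein with close paralogs in its gene cluster, was 10.13, 10.25 and 9.99 in control, 8.92, 8.79 and 8.74 in expanded and 10.33 and 9.92 in TPA arrays. Here control and TPA arrays overlapped one another and the expanded arrays stood alone, with a contrast of -1.31 ± 0.11 (adjusted p = 0.00329) and an adjusted p of 0.0546 on the joint test.

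Fosl1, the AP-1 subunit FRA-1, was 11.01, 10.93 and 10.98 in control, 10.18, 10.45 and 9.93 in expanded and 11.42 and 11.51 in TPA arrays. It was highest in the TPA arrays and lowest in the expanded ones, without overlap, and its contrast was -1.03 ± 0.11 (adjusted p = 0.00526). F3, tissue factor, which starts the coagulation cascade, was 8.68, 8.87 and 8.58 in control, 7.94, 7.97 and 7.70 in expanded and 8.95 and 8.80 in TPA arrays. The expanded arrays stood apart from 2 overlapping groups, with a contrast of -0.92 ± 0.10 (adjusted p = 0.00493). Serpinb2, plasminogen activator inhibitor 2, was 8.63, 9.11 and 8.69 in control, 7.93, 8.59 and 8.31 in expanded and 10.02 and 10.16 in TPA arrays. The expanded and control arrays nearly met, so that most of its contrast of -1.17 ± 0.16 (adjusted p = 0.0159) came from the TPA arrays, and it did not pass without expanded replicate 3 (adjusted p = 0.0664).

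Itgb6, the subunit of the integrin αvβ6 that activates latent TGF-beta, was 9.51, 9.78 and 9.42 in control, 8.17, 8.0045 and 8.12 in expanded and 8.36 and 8.44 in TPA arrays. Ndrg1, a gene of hypoxia and differentiation, was 12.09, 12.24 and 12.17 in control, 10.62, 10.68 and 10.69 in expanded and 10.84 and 10.76 in TPA arrays. In both genes the expanded arrays were lowest but close to the TPA arrays, and the larger gap was to control. The contrasts were -0.89 ± 0.09 (adjusted p = 0.00508) for Itgb6 and -0.82 ± 0.06 (adjusted p = 0.00329) for Ndrg1. Creb3l2, a transcription factor anchored in the endoplasmic reticulum, followed the same order, with 9.02, 8.80 and 8.95 in control, 7.54, 7.73 and 7.49 in expanded and 7.95 and 7.98 in TPA arrays, and a contrast of -0.85 ± 0.08 (adjusted p = 0.00334).

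Rnf19b, a ubiquitin ligase, was 10.96, 11.15 and 10.96 in control, 10.06, 10.41 and 10.15 in expanded and 11.08 and 11.04 in TPA arrays. Control and TPA arrays were at one level and the expanded arrays below it, with a contrast of -0.83 ± 0.09 (adjusted p = 0.00634). Utp14b, which encodes a ribosomal RNA processing factor, was 8.06, 7.98 and 8.02 in control, 7.19, 6.82 and 6.73 in expanded and 7.83 and 7.62 in TPA arrays, with a contrast of -0.96 ± 0.11 (adjusted p = 0.00703). It overlaps the fatty acid ligase gene Acsl3, which was also lower, with a contrast of -0.82 ± 0.12 (adjusted p = 0.0189). The signals of these overlapping genes may not be separate. Epcam, an epithelial adhesion molecule, was 9.67, 9.90 and 9.55 in control, 8.98, 8.37 and 8.65 in expanded and 9.29 and 9.61 in TPA arrays; its contrast of -0.91 ± 0.15 (adjusted p = 0.0274) was kept in 3 of the 8 fits without 1 array.

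**Figure D2:**
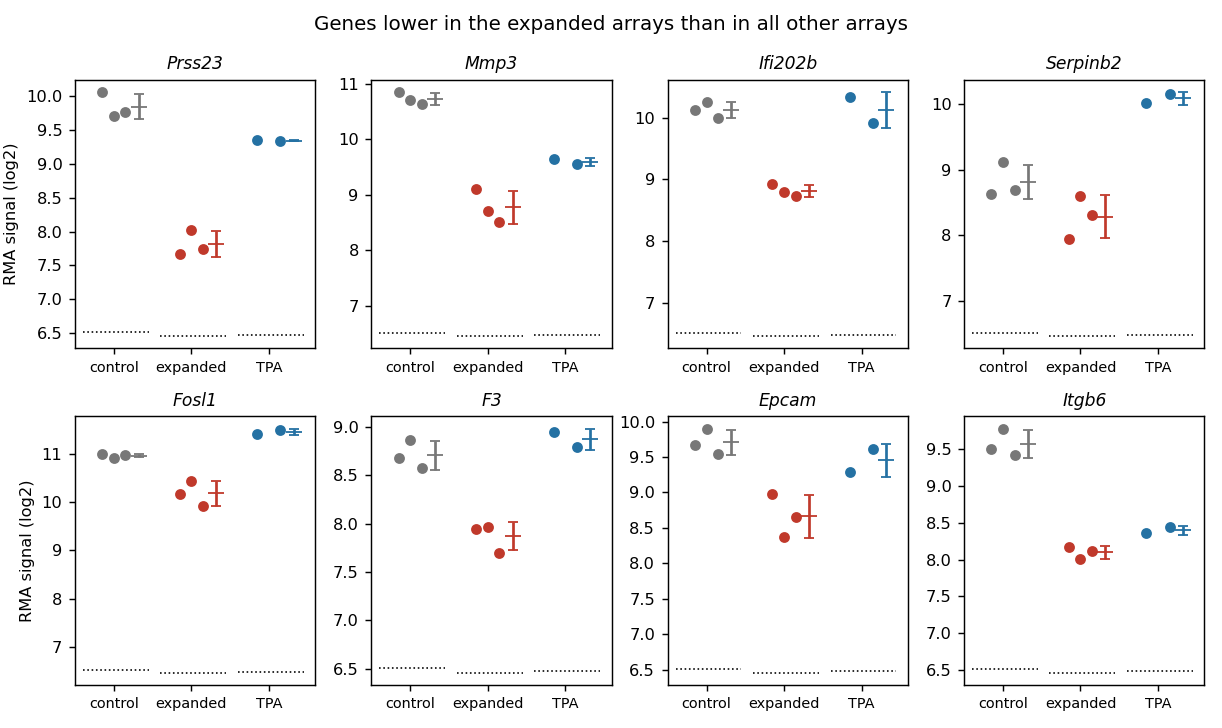
RMA signal in log2 units of 8 genes that were lower in the expanded arrays than in all 5 others; points are arrays, bars are the mean ± SD of a group, and the dotted lines are the mean background limit. In Prss23 and Ifi202b the control and TPA arrays lie near each other above the expanded arrays, whereas in Itgb6 the TPA arrays (8.36 and 8.44) lie close to the expanded ones.

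Among the genes that passed with every expanded array above all others, the largest contrasts were those of 2 serpins, from a family of mostly serine protease inhibitors. Serpina3n, an acute-phase serpin, was 6.83, 6.81 and 7.09 in control, 9.11, 8.99 and 8.59 in expanded and 7.96 and 8.06 in TPA arrays. Serpinb3a, of the squamous cell carcinoma antigen family, whose near-identical copies its probes may not tell apart, was 7.56, 7.95 and 7.59 in control, 9.48, 9.97 and 9.42 in expanded and 8.77 and 8.70 in TPA arrays. In both genes the 3 groups were separate, with the TPA arrays in the middle. The contrasts were 1.44 ± 0.12 (adjusted p = 0.00329) and 1.41 ± 0.14 (adjusted p = 0.00448).

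In 3 further genes, 2610528A11Rik, P4ha3 and Cdhr1, the larger gap was to the TPA arrays. 2610528A11Rik, which encodes a ligand of the receptor GPR15, was 12.05, 12.09 and 12.01 in control, 12.12, 12.22 and 12.22 in expanded and 9.33 and 9.71 in TPA arrays. Its contrast of 1.40 ± 0.09 (adjusted p = 0.00115) thus rests on the TPA arrays, with the expanded mean 0.14 above control. Car2, a carbonic anhydrase, had the same order of groups and a larger contrast of 1.70 (adjusted p = 0.00329), but its expanded arrays, at 11.27, 11.47 and 11.55, overlapped the control arrays, at 11.48, 11.30 and 11.33, and stood apart from the TPA arrays alone, at 7.79 and 8.41. P4ha3, a collagen prolyl hydroxylase subunit, was 8.07, 7.92 and 7.94 in control, 8.66, 8.54 and 8.77 in expanded and 6.55 and 7.22 in TPA arrays, with a contrast of 1.23 ± 0.14 (adjusted p = 0.00704). Cdhr1, a cadherin-related protein known from photoreceptors, was 8.58, 8.58 and 8.85 in control, 9.17, 9.22 and 9.03 in expanded and 7.53 and 7.80 in TPA arrays, with a contrast of 0.98 ± 0.10 (adjusted p = 0.00377). P4ha3 and Cdhr1 were highest in the expanded arrays and lowest in the TPA arrays, with no overlap.

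Oas1c, of the interferon-inducible oligoadenylate synthetase family, was 7.58, 7.36 and 7.30 in control, 8.22, 8.11 and 8.22 in expanded and 7.43 and 7.05 in TPA arrays. The control and TPA arrays overlapped one another and the expanded arrays stood above both, with a contrast of 0.85 ± 0.10 (adjusted p = 0.00869). The call just missed the threshold without expanded replicate 3 (adjusted p = 0.0505). Its upstream window, chr5:120812515-120812764 on the minus strand, is shown because it holds overlapping matches of the interferon-stimulated response element, searched on either strand, which are in capitals and begin 114 and 108 bases before the start.
Oas1c: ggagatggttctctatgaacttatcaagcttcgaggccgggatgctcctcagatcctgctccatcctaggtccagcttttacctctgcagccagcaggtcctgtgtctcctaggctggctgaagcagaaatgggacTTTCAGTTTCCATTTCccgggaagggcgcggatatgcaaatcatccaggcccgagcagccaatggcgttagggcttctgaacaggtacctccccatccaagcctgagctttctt
These letters were in 3 of 59 windows of the higher genes without array overlap (5.08%), 0 of 69 of the lower genes and 2.58% of all windows.

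Slc35g1, a membrane transporter, was 8.24, 8.41 and 8.30 in control, 9.12, 9.34 and 9.20 in expanded and 8.87 and 8.77 in TPA arrays, with a contrast of 0.65 ± 0.08 (adjusted p = 0.0075). The 3 groups did not overlap. Dsc1, a desmosomal cadherin of the differentiating layers, was 6.90, 7.85 and 7.23 in control, 8.49, 9.14 and 8.69 in expanded and 8.07 and 7.94 in TPA arrays. Its expanded arrays were above all others, but the control arrays were widely spread, the larger gap was to control, and the contrast of 1.11 ± 0.22 (adjusted p = 0.0462) was kept in 1 of 8 fits without 1 array. Hoxa10, a homeobox factor, was 6.86, 6.63 and 6.98 in control, 7.89, 7.81 and 7.34 in expanded and 6.57 and 7.03 in TPA arrays, with a contrast of 0.86 ± 0.16 (adjusted p = 0.0373) that was kept in 2 of 8 such fits. Foxn1, the transcription factor mutated in nude mice, was 7.33, 7.49 and 7.40 in control, 7.66, 7.95 and 7.83 in expanded and 7.29 and 7.39 in TPA arrays. Its expanded arrays stood above 2 groups at one level, with a contrast of 0.44 ± 0.08 (adjusted p = 0.0394), also kept in 1 of 8 such fits.

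**Figure D3:**
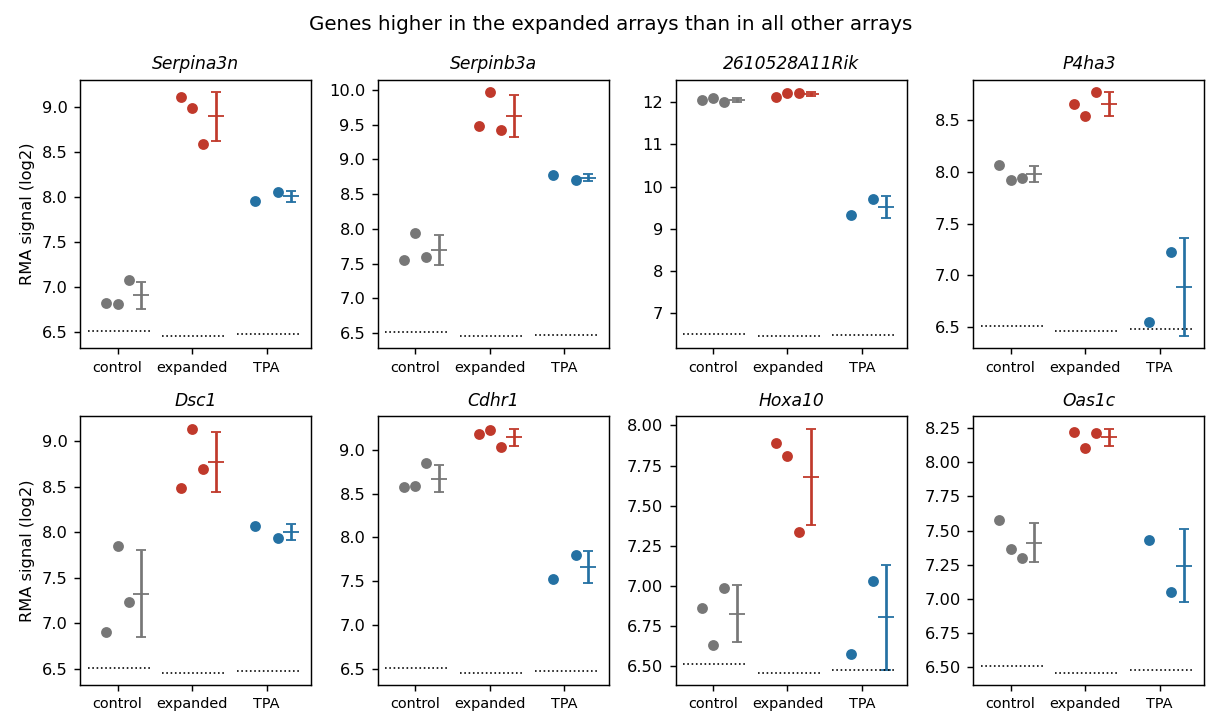
RMA signal in log2 units of 8 genes that were higher in the expanded arrays than in all 5 others; points are arrays, bars are the mean ± SD of a group, and the dotted lines are the mean background limit. Serpina3n and Serpinb3a are lowest in control and highest in expanded arrays, 2610528A11Rik is near 12 in control and expanded arrays alike, and in Oas1c only the expanded arrays are above 8.

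In 84 of the genes that passed, expanded skin lay between the other groups but off their midpoint, 45 of them higher and 39 lower. The expanded mean was nearer TPA in 55 (30 higher, 25 lower) and nearer control in 29 (15 higher, 14 lower). The largest contrasts of all were of this kind. Krt2, the keratin of the upper spinous layers, was 5.99, 6.50 and 7.35 in control, 12.25, 12.35 and 12.38 in expanded and 12.62 and 12.54 in TPA arrays. Expanded and TPA arrays were at nearly the same high level, 1 of the 3 control arrays was below the background limit, and the contrast was 2.73 ± 0.25 (adjusted p = 0.00329).

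Krt36, a hair keratin, was 7.83, 7.58 and 6.94 in control, 12.14, 11.86 and 11.87 in expanded and 12.34 and 12.20 in TPA arrays, with a contrast of 2.10 ± 0.18 (adjusted p = 0.00329). Krt84, also a hair keratin, was 7.06, 6.63 and 7.18 in control, 11.15, 10.85 and 10.52 in expanded and 11.16 and 11.06 in TPA arrays, with a contrast of 1.80 ± 0.16 (adjusted p = 0.00329). In these keratins the expanded arrays were at or just below the TPA level and far above control. Gjb2, the gap junction protein connexin 26, was on the control side. It was 12.66, 12.64 and 12.55 in control, 12.06, 12.20 and 12.20 in expanded and 9.67 and 9.27 in TPA arrays, with a contrast of 1.11 ± 0.10 (adjusted p = 0.00329).

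On the lower side, Arg1, the enzyme arginase, was 10.13, 10.91 and 10.66 in control, 6.59, 6.74 and 6.25 in expanded and 6.34 and 6.22 in TPA arrays. It was well expressed in control only; 2 of 3 expanded and 0 of 2 TPA arrays were above the background limit, and its contrast was -1.90 ± 0.18 (adjusted p = 0.00329), or -1.89 with signals raised to that limit. Neu2, a sialidase, was 10.07, 9.82 and 9.30 in control, 6.47, 5.87 and 5.33 in expanded and 4.74 and 5.09 in TPA arrays, with a contrast of -1.43 ± 0.26 (adjusted p = 0.036). Only 1 of 3 expanded and 0 of 2 TPA arrays were above the limit. With signals raised to it, the difference of expanded from TPA was -0.014, so its place between the groups rests on background signal. Vwa1, a matrix protein, was 9.27, 9.32 and 9.22 in control, 6.91, 7.45 and 7.52 in expanded and 6.83 and 7.05 in TPA arrays, with a contrast of -0.81 ± 0.14 (adjusted p = 0.0296). In Neu2 and Vwa1, too, control was the group apart; each was kept in 2 of the 8 fits without 1 array. Sprr2h, from a family of closely related genes, Tll1 and Mmp1b completed the 10 named genes of this kind. Their contrasts were 1.09 for Sprr2h (1 of 8 such fits), -1.01 for Tll1 (0 of 8) and -0.94 for Mmp1b (5 of 8), and Mmp1b was below the limit on all expanded and TPA arrays and did not pass with signals raised to it.

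**Figure D4:**
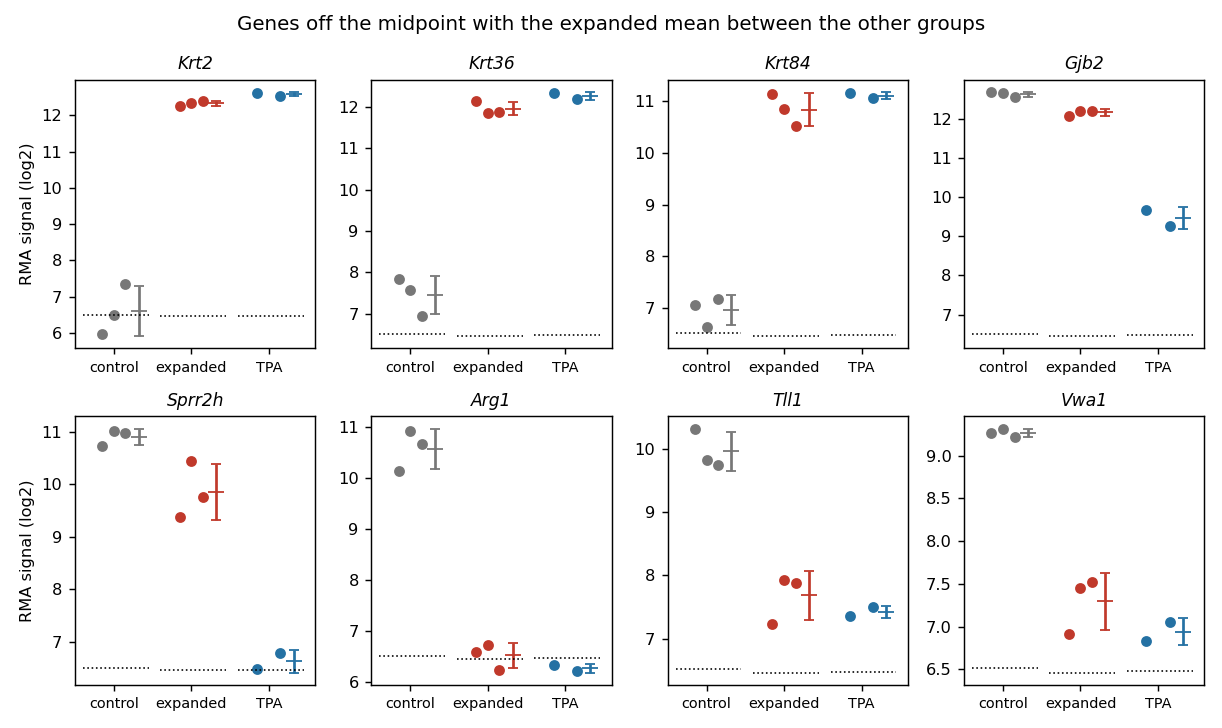
RMA signal in log2 units of 8 genes that passed although the expanded mean lay between the other groups; points are arrays, bars are the mean ± SD of a group, and the dotted lines are the mean background limit. Krt2, Krt36 and Krt84 sit at the TPA level, Gjb2 sits near control, and Arg1 is above 10 in the control arrays only.

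The lists were chosen with earlier results of these data known. All 38 lists held 598 measured entries, 100 of them in the 11 cell type lists described below. Over all genes 1.72% passed, a share of genes that cannot be set against a count of lists. Of the 27 pathway lists, 23 had at least 1 member that passed, 15 with lower members only and 5 with higher members only. Most lists had 1 or 2 such members, and the medians of their contrasts ran from -0.36 to 0.28, beside 0.02 over all genes. Higher and lower here mean above and below the midpoint. In 11 of the 27 lists the median difference from control and the median difference from TPA had opposite signs, and both are given below for part of the lists. Among those 11, the medians against control and TPA not given below were -0.31 and 0.24 for glycolysis and hypoxia. They were -0.39 and 0.23 for the unfolded protein and ATF4 response, and 0.21 and -0.23 for the circadian clock. For junctions they were -0.10 and 0.02, for NRF2 genes -0.06 and 0.14, and for epidermal transcription factors 0.11 and -0.08. Of the 41 list genes that passed, 11 were kept with each of the 8 arrays left out in turn: Cnfn, Cxcl16, F3, Fosl1, Gjb2, H2-D1, Itgb6, Krt2, Mmp3, Ndrg1 and Serpinb3a. A further 20 were kept in 2 or fewer of those fits: Bmp2, Ccn1, Cdt1, Col7a1, Crim1, Dsc1, Dsc2, Ereg, Foxn1, Jag1, Krt16, Msmo1, Nt5e, Parp10, Pmaip1, Sc5d, Sprr2h, Srf, Vegfa and Wnt3.

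Among the mechanical and growth-signalling lists, the members that passed were all below the midpoint, though the lists differed in where expanded skin lay. Of 15 YAP/TAZ targets, 4 passed: F3 as above, Nt5e, an ecto-nucleotidase (-0.58, adjusted p = 0.0347), Ccn1, a matricellular protein (-0.70 ± 0.13, adjusted p = 0.0356), and Crim1, a membrane protein that binds growth factors (-0.51, adjusted p = 0.0357). Ccn1 was 10.44, 10.27 and 10.54 in control, 10.82, 10.56 and 10.24 in expanded and 12.08 and 12.05 in TPA arrays, so the expanded arrays overlapped control and the contrast came from the TPA side. Of the 4, F3 was kept in all 8 fits without 1 array, Nt5e and Crim1 in 2 and Ccn1 in 1. The median of the list was -0.18, with -0.15 against control and -0.09 against TPA. Of 18 genes of the actin cytoskeleton and SRF targets, Srf itself was lower. It was 10.76, 10.79 and 10.76 in control, 10.67, 10.49 and 10.52 in expanded and 11.09 and 11.15 in TPA arrays, a step of -0.38 ± 0.06 (adjusted p = 0.0285), kept in 1 of 8 such fits. The list's median was -0.17, with -0.66 against control and 0.25 against TPA: the mean of the list was 9.92 to 10.09 on the expanded arrays, below the control arrays (10.65 to 10.72) and above the TPA arrays (9.71 and 9.73).

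Of 18 immediate early and AP-1 genes, Fosl1 passed, and the median was -0.28, with 0.10 against control and -0.52 against TPA. The mean of this list was 10.54 to 10.60 on control, 10.53 to 10.73 on expanded and 11.27 and 11.22 on TPA arrays, so expanded and control arrays overlapped and the TPA arrays were high. Egr1 was at -0.37 (adjusted p = 0.0622), Jun at -0.28 (adjusted p = 0.200) and Fos at -0.12 (adjusted p = 0.394). Of 19 EGFR ligands and MAPK feedback genes, 2 ligands passed and the median was -0.30, with -0.37 against control and -0.19 against TPA. Hbegf was 11.62, 11.67 and 11.67 in control, 10.65, 10.72 and 10.69 in expanded and 11.05 and 10.70 in TPA arrays, with a contrast of -0.58 ± 0.08 (adjusted p = 0.0184). It was lower than control in every expanded array and overlapped TPA. Ereg had a contrast of -0.48 (adjusted p = 0.0462), but it was below the background limit on all expanded and TPA arrays.

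The matrix list had the lowest median, -0.36 over 25 genes, with -0.64 against control and -0.02 against TPA. The mean of the list was 9.59, 9.23 and 9.09 on control, 8.34, 8.38 and 8.12 on expanded and 8.42 and 8.18 on TPA arrays, so that expanded and TPA arrays overlapped below control. Mmp3, Itgb6 and Tnc passed, all lower; Tnc, the matrix glycoprotein tenascin C, was 11.58, 11.63 and 11.56 in control, 10.80, 10.72 and 10.62 in expanded and 10.89 and 10.84 in TPA arrays. Its expanded arrays were lowest by a narrow margin to TPA, and the contrast was -0.51 ± 0.06 (adjusted p = 0.0107). Mmp13, a collagenase, had a contrast of -1.92 and Timp1, a metalloprotease inhibitor, of -1.06, and neither passed (adjusted p = 0.068 each). Of 15 basal keratin, integrin and hemidesmosome genes, Col7a1, the anchoring fibril collagen, was lower at -0.36 (adjusted p = 0.0356), a call kept in 0 of 8 fits without 1 array.

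Differentiation and stress genes were mixed. Of 20 suprabasal genes, Krt2, Dsc1 and the desmoglein Dsg1a (0.77 ± 0.11, adjusted p = 0.018) were higher, and Cnfn, the cornified envelope protein cornifelin, was lower. Cnfn was 8.62, 8.77 and 8.85 in control, 7.18, 7.14 and 6.99 in expanded and 7.35 and 7.08 in TPA arrays, which put expanded and TPA arrays at one level below control, with a contrast of -0.88 ± 0.09 (adjusted p = 0.00485). Krt10, the main suprabasal keratin, had a contrast of 0.74 ± 0.21 and did not pass (adjusted p = 0.133). Of 14 stress and wound genes, Serpinb3a, Sprr2h and Krt16 were above the midpoint. The median was 0.28, with -0.51 against control and 1.10 against TPA: the mean of the list was 10.49 to 10.87 on control, 10.09 to 10.19 on expanded and 8.48 and 8.81 on TPA arrays, which put expanded skin below control and far above the arrays labelled TPA. Serpinb3a was above both groups, whereas Sprr2h was 1.05 below control on the log2 scale and Krt16 0.14 below. The contrast of Krt16 was 0.30 ± 0.06 (adjusted p = 0.0408), kept in 0 of 8 fits without 1 array, while Krt6a was at 0.26 (adjusted p = 0.117) and Odc1 at -0.33 (adjusted p = 0.0772). Of 20 junction genes, Gjb2 and the desmocollin Dsc2 (0.72 ± 0.13, adjusted p = 0.0346) were higher, both between the other groups.

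Immune genes were few. Of 21 cytokines and chemokines, Cxcl16 and Ccl20 were lower. Cxcl16 was 9.99, 10.01 and 10.19 in control, 9.78, 9.82 and 9.64 in expanded and 10.74 and 10.82 in TPA arrays; the expanded arrays were lowest without overlap and the TPA arrays highest, and the contrast of -0.67 ± 0.08 (adjusted p = 0.00634) was kept in all 8 fits without 1 array. Ccl20 (-0.61, adjusted p = 0.0241) was higher in TPA arrays, at 7.83 and 7.96. In control and expanded arrays it was near the background limit, with 1 of 3 control and 2 of 3 expanded arrays above it. Of 20 interferon and antigen presentation genes, 1 passed in each direction and the median was -0.08, with -0.01 against control and -0.07 against TPA. H2-D1, a class I histocompatibility antigen from a family of near-identical genes, was 12.78, 12.75 and 12.87 in control, 12.13, 12.33 and 12.35 in expanded and 12.86 and 12.83 in TPA arrays, so that the expanded arrays stood below 2 groups at one level (-0.55 ± 0.07, adjusted p = 0.0145). Parp10 was higher (0.93, adjusted p = 0.0293), between the other groups and near TPA.

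In the lists of growth and division few genes passed. Of the 18 ribosome biogenesis genes 0 passed, and in 11 all expanded arrays were above all others, in 14 the expanded mean was above both groups and in 0 it was below both; over all genes 3.28% and 30.0% lay above in these ways. The median of the list was 0.22 against control and 0.14 against TPA. The 11 became 7 after quantile normalization and 9 after centring each array on its median. Dkc1, the pseudouridine synthase dyskerin, was 11.16, 10.96 and 11.13 in control, 11.36, 11.38 and 11.47 in expanded and 10.87 and 11.10 in TPA arrays, a contrast of 0.37 ± 0.08 (adjusted p = 0.0644). Polr1b, which encodes a large subunit of the ribosomal RNA polymerase, was 7.72, 7.98 and 7.84 in control, 8.64, 8.36 and 8.36 in expanded and 8.20 and 7.97 in TPA arrays, a contrast of 0.49 ± 0.10 (adjusted p = 0.0556). In both genes the expanded arrays were highest, by margins that did not pass over all genes.

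The respiratory chain list was similar, with 0 of 19 genes passing, 7 with all expanded arrays above all others, 8 and 7 after the same rescalings, and a median of 0.12, with 0.09 against each group. Of 22 DNA replication genes, Cdt1, which licenses replication origins, was higher. It was 10.02, 9.78 and 9.90 in control, 10.27, 10.28 and 10.36 in expanded and 9.86 and 9.66 in TPA arrays, with every expanded array above every other (0.47 ± 0.08, adjusted p = 0.0285), kept in 2 of 8 fits without 1 array. The median of that list was 0.20, with 0.04 against control and 0.33 against TPA, and 11 of its genes had the expanded mean above both groups. Of 21 mitosis genes 0 passed, with a median of 0.03 (-0.22 against control and 0.20 against TPA), and of 18 proteasome genes 0 passed, with a median of 0.06 (-0.02 and 0.18).

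Stress response and metabolic lists had 1 or 2 lower members each. Hspb1, the small heat shock protein HSP27, was 12.33, 12.39 and 12.40 in control, 12.01, 11.95 and 11.93 in expanded and 12.35 and 12.34 in TPA arrays. Control and TPA arrays were at one level and the expanded arrays clearly below (-0.40 ± 0.06, adjusted p = 0.018); no other of the 13 heat shock genes passed. Of 19 genes of the unfolded protein and ATF4 response, the chaperone Dnajb9 was lower (-0.83 ± 0.12, adjusted p = 0.0167) and the serine synthesis enzyme Phgdh higher (0.44, adjusted p = 0.0281). Of 20 sterol and fatty acid synthesis genes, Msmo1 (-0.76, adjusted p = 0.0412) and Sc5d (-0.38, adjusted p = 0.0285), both sterol synthesis enzymes, were lower; each was kept in 1 of 8 fits without 1 array. Of 17 glycolysis and hypoxia genes, Ndrg1 and the growth factor Vegfa (-0.58, adjusted p = 0.049) were below the midpoint. Vegfa lay between the groups, with means of 11.07 in control, 9.84 in expanded and 9.76 in TPA arrays. The mean of the list was 11.70 to 11.84 on control, 11.19 to 11.25 on expanded and 10.94 and 10.95 on TPA arrays.

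Among the remaining lists, 2 of 17 circadian clock genes were lower. Bhlhe40, a repressor of the clock, was 10.63, 10.74 and 10.40 in control, 10.40, 10.29 and 10.23 in expanded and 11.21 and 11.20 in TPA arrays, and Arntl, which encodes BMAL1, was 8.24, 8.28 and 8.11 in control, 8.04, 8.32 and 7.85 in expanded and 9.45 and 9.61 in TPA arrays. In both the TPA arrays were highest and the expanded arrays close to control, with contrasts of -0.59 ± 0.09 (adjusted p = 0.0189) and -0.80 ± 0.11 (adjusted p = 0.0153). The ligands Jag1 of the Notch list (-0.35, adjusted p = 0.0285), Wnt3 of the Wnt list (-0.55, adjusted p = 0.0293) and Bmp2 of the TGF-beta and BMP list (-0.57, adjusted p = 0.0455), and the p53 target Pmaip1 (-0.44, adjusted p = 0.0285), were the only members of their lists of 15, 22, 21 and 15 genes to pass. The antioxidant gene Gsta4 (0.44, adjusted p = 0.0277) was the only one of 16 NRF2 genes to pass, and Foxn1 the only one of 20 epidermal transcription factors. Bmp2 differed by 0.81 from control and -1.94 from TPA, and Wnt3 by 0.21 and -1.32, so their expanded means were above control. Jag1 (-0.70 from control and -0.005 from TPA) and Pmaip1 (-0.83 and -0.05) were near the TPA level. Gsta4 lay between the groups, at -0.64 from control and 1.52 from TPA.

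**Figure D5:**
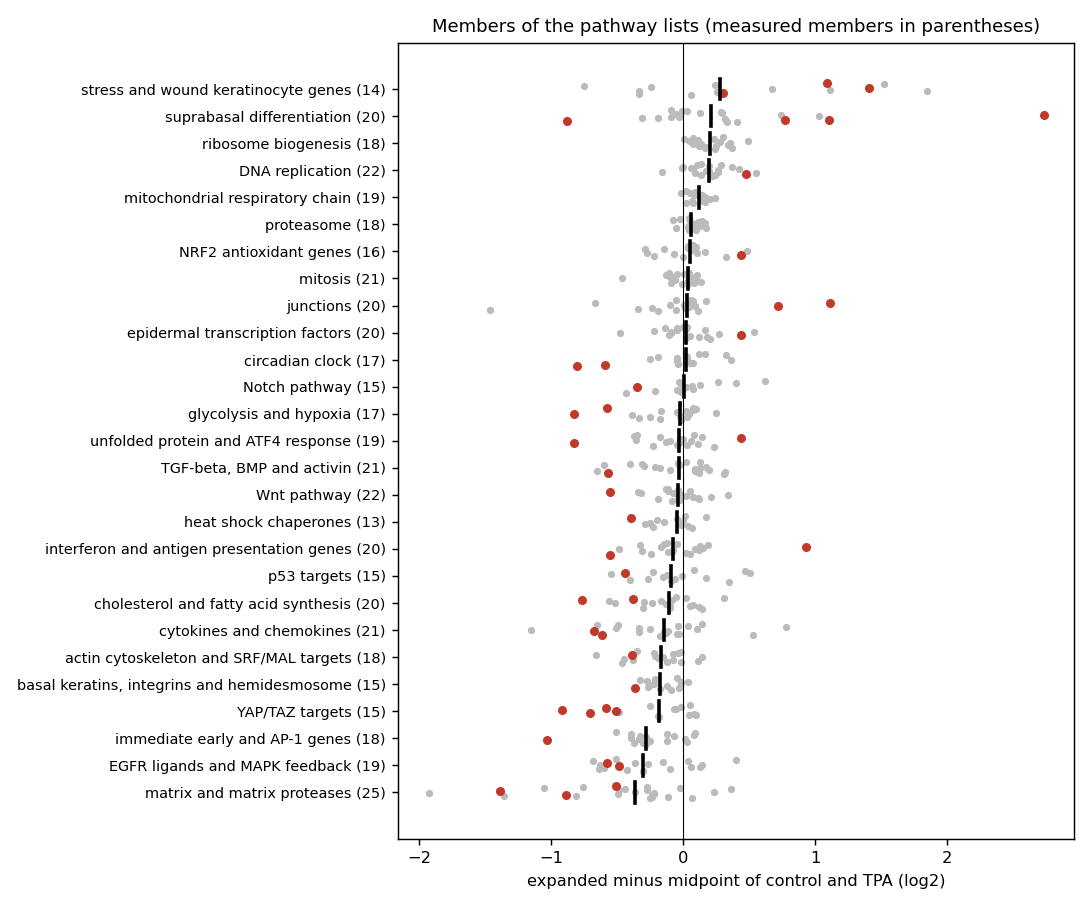
Contrast of the expanded arrays with the midpoint, in log2 units, for the measured members of 27 pathway lists; each point is a gene, red points are genes that passed, and black bars are the list medians. The medians lie between -0.36 for matrix genes and 0.28 for stress and wound genes, and red points are few in every list.

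Markers of other cells that the sort could hold were checked with 11 lists. Over all genes 0.784% passed as higher and 0.936% as lower. Of 100 list entries measured, 0 were higher and 3 lower, and 42 were below the background limit on all arrays. Beside those shares, counts this small are not a result about the marker sets. The 3 were Plet1 of the infundibulum (-0.73, adjusted p = 0.0274), Fgf18 of the bulge (-1.06, adjusted p = 0.0165) and Epcam, listed for Langerhans cells. In the infundibulum list, with 1 of 11 genes lower, the mean level of an array ranged from 9.12 to 9.77 in control, from 8.81 to 9.79 in expanded and from 9.93 to 10.08 in TPA arrays; the infundibulum keratin Krt79 was 10.57, 10.04 and 7.51 in the expanded arrays against 10.03 to 11.53 elsewhere. In the Langerhans cell list, with 1 of 11 genes lower, the mean ranged from 6.97 to 7.32 in control, from 6.71 to 6.78 in expanded and from 6.73 to 6.74 in TPA arrays, and Cd207, its defining gene, was below the limit on all arrays. Single control arrays stood apart in other lists. The endothelial list had a mean of 7.19 on control replicate 1 against 6.35 and 6.49 on the other control arrays. Pecam1 was at 8.30 there. On the same array the stromal genes Col1a1 and Vim were at 8.12 and 10.57, and the matrix list mean was the highest of all arrays. Vim was also at 9.31 and 9.75 on expanded replicates 2 and 3, and Dcn, also stromal, was lowest on control replicate 1. The fibroblast list mean was 6.28 on control replicate 1, close to 6.23 on expanded replicate 3. The macrophage and neutrophil list was at 6.59 and 6.61 on control replicates 1 and 3 and 6.14 on replicate 2, against 5.99 to 6.07 on the expanded and TPA arrays. The melanocyte list was at 6.40 on control replicate 3 against 5.71 and 5.79 on the other control arrays, and H2-Ab1, a class II antigen, was at 9.55 there. Of the genes of the endothelial, macrophage, melanocyte and fibroblast lists 0 passed, and the counts without control replicates 1 and 3 are those given above, 162 and 164. In the bulge list 1 of 10 genes was lower and Cd34 was below the limit throughout. In sorted bulk samples fewer cells of a type and less RNA per cell cannot be told apart, and the part of infundibulum, endothelial, stromal, immune or pigment cells in the lower genes was not tested.

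Sex-linked genes also moved with the groups. Xist was 10.50, 10.40 and 10.34 in control, 9.65, 10.12 and 9.92 in expanded and 11.60 and 11.61 in TPA arrays, a contrast of -1.11 ± 0.10 (adjusted p = 0.00329). The Y-linked Eif2s3y was 8.78, 8.81 and 8.72 in control, 9.26, 9.26 and 9.22 in expanded and 8.58 and 8.54 in TPA arrays, a contrast of 0.58 ± 0.06 (adjusted p = 0.00364). Uty, also Y-linked, was above the background limit on the 3 expanded arrays only (0.90 ± 0.13, adjusted p = 0.0184, or 0.61 with signals raised to the limit). Kdm5d was 6.57, 7.49 and 7.22 in control, 7.76, 7.95 and 7.59 in expanded and 7.58 and 7.13 in TPA arrays. Its expanded arrays nearly met a TPA array, and its contrast of 0.55 ± 0.20 did not pass (adjusted p = 0.261). Xist was lowest and these Y-linked genes highest in the expanded arrays, by a narrow margin for Kdm5d. Both Xist and Eif2s3y were above the limit on all 8 arrays. Of 597 genes on chromosome X, 3 passed (0.503%), and of 12 on chromosome Y, 2 passed. Without the genes of both chromosomes 295 genes passed, 289 of them among the 294. Whether the sex of the mice had a part in other genes was not tested.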

How the data were processed

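The deposited values are log2 signals from Affymetrix arrays, made by the authors with RMA per the submitters' processing notes; the version, annotation and genome build are not given in the sources used here. Per the labels' protocols, cDNA from 300 sorted cells was amplified before labelling, which can compress or distort differences, and with 8 arrays their number limits the precision. Of 45141 probe sets, 28898 had 1 gene symbol in the platform annotation of 2016, 551 had several and 15692 none; the probe set with the highest mean over all arrays stood for a gene. Row names were checked on 226 probe set pairs that share a gene (median r 0.952, against 0.0323 when shifted by 1 row). One linear model with a mean per group was fitted to all 8 arrays and 17097 genes with limma 3.58.1 in R 4.3.3, with eBayes and Benjamini-Hochberg adjustment over all genes at 0.05. The joint test took the larger p of expanded against control and expanded against TPA where both had the same sign. On simulated data, 70% of genes changed by 1.5-fold and 94% of genes changed by 2-fold were recovered by the contrast. The joint test recovered 50% and 90%, and the false calls over both fold sizes were 12 and 2. Each simulated gene had the same mean in control and TPA, with normal noise and the change added to the expanded arrays only. In the data many genes differ between control and TPA. Recovery by the joint test in such genes was not simulated, so its low count does not show that such genes are absent. Levels of different probe sets were not compared.

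Genes were named by rule: up to 15 per direction that passed the joint test; the 5 largest contrasts per direction with the expanded mean between the groups; up to 4 members per list with the smallest p; and 8 marker genes. Because 1 gene passed the joint test, up to 20 per direction that passed the contrast with no array overlap were added; these, the sex-linked genes, the printed promoters, Fos, Jun, Timp1, Car2, Cd207, Ranbp2 and Slc25a18 were chosen after their values were seen. The members and lists were chosen with earlier results of these data known. The rules on position asked for a highest group mean above the median of all genes, 7.11. Promoter windows came from RefSeq for 13605 genes, and 12 motifs were searched on both strands. Alternatives were other scalings, filters, probe set rules, variance models, midpoint weights, a replicate block, a fold threshold and leaving out each array; leaving out genes of chromosomes X and Y and the rescaled list counts were added after seeing the data.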

Additional observations from a re-analysis of the deposited data

How the results depend on the processing

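The count of 294 genes moved by over 1.5 times under some settings: 529 with signals raised to the background limit, 570 with a trended robust variance model, 490 with the midpoint weighted by arrays, and 5 in a test against a fold of 1.5 (Prss23, 2610528A11Rik, Car2, Krt2 and Krt36). It was 338 after quantile normalization, 286 after centring, 430 among genes above the median level, 338 with the mean of probe sets and 385 with array weights. With 1 array left out it ranged from 63 to 284. Fits that left 1 TPA array assume that it varies like the other groups. The joint test called 0 genes as higher than both, except 1 with the trended model, and its range without 1 array was 0 to 0. As lower than both it called 1; it called 0 after centring and in the fold test, 2 among genes above the median level, with raised signals and with the mean of probe sets, 5 with the trended model, and between 0 and 1 without 1 array. Replicate numbers did not pair the arrays: control and expanded arrays of the same number had correlations of their residuals from -0.18 to 0.03. With a replicate block 113 genes passed, 102 of them among the 294, and the joint test called 0 as lower. The cause of these shifts was not tested. Apart from Ranbp2 and Slc25a18, no named gene that passed changed sign under these settings. With signals raised to the background limit, 5 list medians near 0 changed sign (circadian clock, Notch, bulge, Merkel and endothelial cells), and 4 genes that passed were below the limit in all groups, of which Ranbp2 and Slc25a18 changed sign.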
